A study of Mus musculus with 8 samples.

Results

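The CYP2A and CYP2B enzymes of mouse liver were followed through their genes: Cyp2a4, Cyp2a5, Cyp2a12 and Cyp2a22 of the first family, Cyp2b9, Cyp2b10 and Cyp2b13 of the second, and Por, the reductase that serves them. Members were taken by symbol from rows of the array table annotated to a single gene. That gave 7 of the 8 genes, each with 1 row, among 22180 genes tested. No row was annotated to Por, so its level is not analysed here.

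Liver total RNA was measured on 8 arrays, 4 for each group, from 3-month-old mice kept on normal chow. The mice had been given adeno-associated virus (AAV) through a vein 2 weeks before harvest, which was at 5 pm (ZT10 of the light cycle). In the group labelled NCOR KO the virus carried Cre recombinase, and in the group labelled WT it carried GFP. NCOR is a nuclear receptor corepressor that works with a histone deacetylase. The series text speaks of NCOR floxed mice for both viruses, whereas the labels call the controls wild-type, so the controls' allele is not settled. The promoter that drives Cre is not given in the sources used here, and Cre itself cannot be told apart from loss of NCOR. The labels call the replicates biological but name no animals and give no sex, so the p-values reflect only how far these arrays scatter.

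Cytochrome P450 enzymes insert an oxygen atom into lipophilic substrates, and those of the endoplasmic reticulum receive their electrons from POR. In mouse liver the Cyp2a and Cyp2b genes lie interleaved in a cluster on chromosome 7. Cyp2b10 is the classical target of the xenobiotic receptor CAR (Nr1i3), while Cyp2b9, Cyp2b13 and Cyp2a4 are known as genes with a female-biased level in the liver. Nuclear receptors such as PXR (Nr1i2), a relative of CAR, can bind corepressors when they are not active. The comparison asks how these genes read once NCOR is deleted.

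Of the 7 measured genes 2 rose in knockout liver (Cyp2a4 and Cyp2a5), 0 fell and 5 did not pass a limma adjusted p of 0.05 over all genes. Over all 22180 genes 1.65% passed that threshold, 0.816% being higher and 0.834% lower. Values are log2 of the deposited intensity, changes are knockout minus control, and SE is the standard error of the fit. The 4 knockout arrays all lay above the 4 control arrays for the same 2 genes, a separation seen in 10.4% of all genes (4.90% with the knockout higher and 5.49% with it lower). The largest estimated rise, that of Cyp2b9, was not among them, because 1 control array was high.

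**Figure D1:**
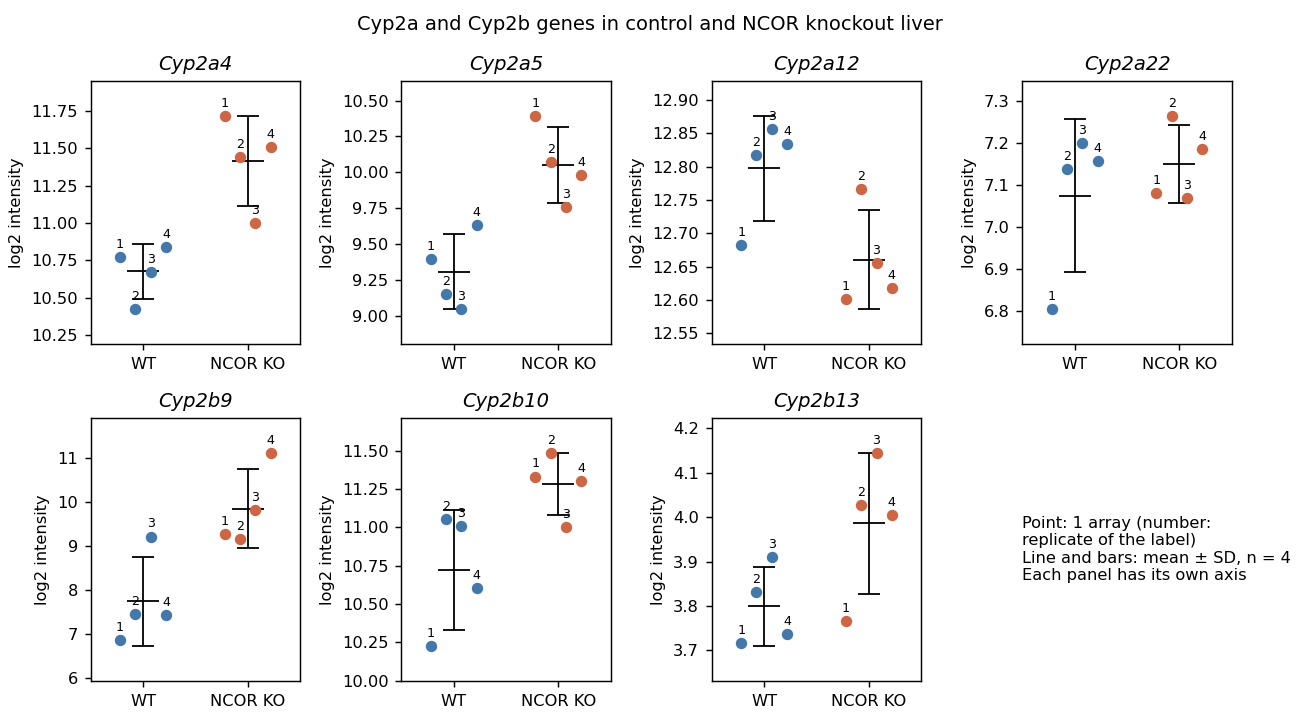
Log2 intensity (y axis, its own scale in each panel) of the 7 measured genes in 4 WT and 4 NCOR KO livers; points are arrays numbered by replicate, and lines with bars are the mean ± SD (n = 4). Cyp2a4 and Cyp2a5 have no overlap between groups, and WT replicate 3 of Cyp2b9, at 9.21, lies among the knockout arrays.

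Cyp2a4 encodes a steroid hydroxylase and Cyp2a5 a coumarin and nicotine hydroxylase, and the genes are close copies. Their proximal promoters show this likeness upstream of the start. The 250 bases before each start, read from RefSeq on GRCm38.p6, are given 5′ to 3′, with the bases that differ between them in capitals. The windows are chr7:26306942-26307191 for Cyp2a4 and chr7:26835089-26835338 for Cyp2a5, both on the plus strand.
Cyp2a4: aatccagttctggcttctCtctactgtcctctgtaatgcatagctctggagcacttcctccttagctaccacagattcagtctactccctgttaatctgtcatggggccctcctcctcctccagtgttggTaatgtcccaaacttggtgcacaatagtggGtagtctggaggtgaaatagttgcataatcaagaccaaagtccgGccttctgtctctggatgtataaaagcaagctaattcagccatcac
Cyp2a5: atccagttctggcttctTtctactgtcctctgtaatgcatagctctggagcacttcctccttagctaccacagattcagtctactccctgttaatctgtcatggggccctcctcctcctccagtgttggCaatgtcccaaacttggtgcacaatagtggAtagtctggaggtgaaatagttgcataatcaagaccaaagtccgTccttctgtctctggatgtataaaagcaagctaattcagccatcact
These windows were identical at 245 of 249 aligned positions (98.4%), with 4 substitutions and no gap. The windows lie before the start, so they do not show how alike the transcripts or the array probes are. Array probes of close gene copies can share signal, so the rows of Cyp2a4 and Cyp2a5 may not be independent readings. Whether they share signal was not tested.

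The Cyp2a4 row read 10.77, 10.42, 10.67 and 10.84 in WT replicates 1 to 4 and 11.72, 11.44, 11.00 and 11.51 in NCOR_KO replicates 1 to 4. The lowest knockout array, replicate 3, stood 0.16 above the highest control, replicate 4. Its mean went from 10.68 ± 0.18 to 11.42 ± 0.30 (SD, n = 4), a change of 0.74 ± 0.14 SE or 1.67-fold (adjusted p = 0.0355).

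The Cyp2a5 row read 9.40, 9.15, 9.05 and 9.63 in the control arrays and 10.39, 10.07, 9.76 and 9.98 in the knockout arrays, again in replicate order. Here too the highest knockout array was replicate 1 and the lowest replicate 3, and WT replicate 4 was the highest control. The mean went from 9.31 ± 0.26 to 10.05 ± 0.26 (SD, n = 4), a change of 0.74 ± 0.15 SE or 1.68-fold (adjusted p = 0.0381). The changes of Cyp2a4 and Cyp2a5 differed by -0.0044 on the log2 scale (exact permutation test on the per-array difference, two-sided, p = 0.943).

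Both calls were lost in most fits that left out an array, where 120 to 297 genes passed instead of 366. Cyp2a4 kept the call in 1 of the 8 fits that left out an array, that without NCOR_KO replicate 3 (adjusted p = 0.00987). Its adjusted p was 0.0712, 0.0624, 0.0784 and 0.0630 without WT replicates 1 to 4, and 0.0786, 0.104 and 0.0762 without NCOR_KO replicates 1, 2 and 4. Its change stayed between 0.64 and 0.88 in these fits. Cyp2a5 kept the call in 2 of the 8, without WT replicate 4 (adjusted p = 0.0360) and without NCOR_KO replicate 3 (adjusted p = 0.0420). It missed the threshold when WT replicate 1, 2 or 3 was dropped (adjusted p = 0.0818, 0.0746 and 0.0906) and when NCOR_KO replicate 1, 2 or 4 was (adjusted p = 0.0854, 0.113 and 0.0743). Its change stayed between 0.63 and 0.85. NCOR_KO replicate 3, the lowest knockout array of both genes, was the array whose removal left both called.

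**Figure D2:**
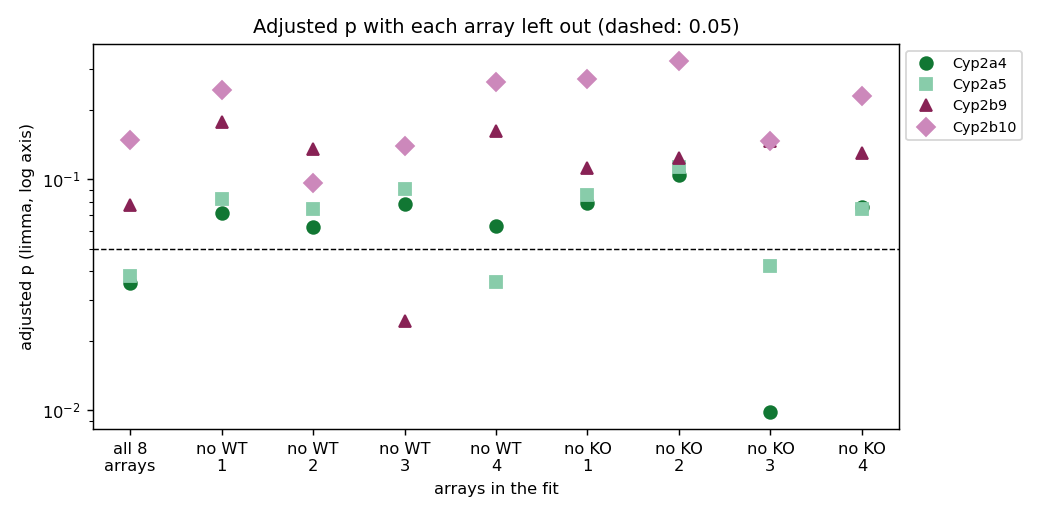
Adjusted p from limma (y axis, log scale; dashed line at 0.05) of Cyp2a4, Cyp2a5, Cyp2b9 and Cyp2b10 with all 8 arrays and with each array left out (x axis). Cyp2a4 is under the line with all arrays and without NCOR_KO replicate 3, Cyp2b9 only without WT replicate 3, and Cyp2b10 in no fit shown.

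The other CYP2A genes did not pass the test. Cyp2a12, another steroid hydroxylase gene, read 12.68, 12.82, 12.86 and 12.83 in the control arrays and 12.60, 12.77, 12.65 and 12.62 in the knockout arrays. The groups overlapped, with WT replicate 1 below NCOR_KO replicate 2. The change was -0.14 ± 0.06 SE (adjusted p = 0.332), with a 95% interval from -0.28 to 0.0058. That interval of the row's intensity holds no rise beyond 0.0058 on the log2 scale in these samples. The row was brighter than 99.7% of genes, at a control mean of 12.80, so a change of the transcript may be compressed there. Of the 7 genes Cyp2a12 had the smallest SD in both groups, 0.08 and 0.07.

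Cyp2a22, whose enzyme is little described, read 6.80, 7.14, 7.20 and 7.16 in control and 7.08, 7.26, 7.07 and 7.19 in knockout liver. WT replicate 1 stood below the other 7 arrays. The change was 0.08 ± 0.09 SE (adjusted p = 0.735; 95% interval -0.13 to 0.28), and without WT replicate 1 it was -0.01. The upstream windows of Cyp2a12 and Cyp2a22 were 88.8% identical with each other. Against Cyp2a4 they were 53.5% and 52.9% identical, where the windows of Cyp2a4 and the unrelated Por were 46.7% identical under the same alignment.

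Pairs within a family were compared by the per-array log2 difference of their rows, with an exact permutation test over 70 assignments whose smallest two-sided p is 0.0286. In all 6 pairs were tested. Cyp2a4 gained 0.88 on Cyp2a12, and the 4 knockout differences lay above the 4 control differences (exact p = 0.0286, adjusted over the 6 pairs 0.114). The Cyp2a12 row varied little between arrays (SD 0.08 and 0.07), so this difference largely restates the change of Cyp2a4. Cyp2a4 gained 0.66 on Cyp2a22, with NCOR_KO replicate 3 below WT replicate 1 (exact p = 0.0571, adjusted 0.114). No pair passed after adjustment, which at this size needs at least 4 of the 6 pairs at the smallest p (a single one gives 0.171), so the missed threshold says little.

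**Figure D3:**
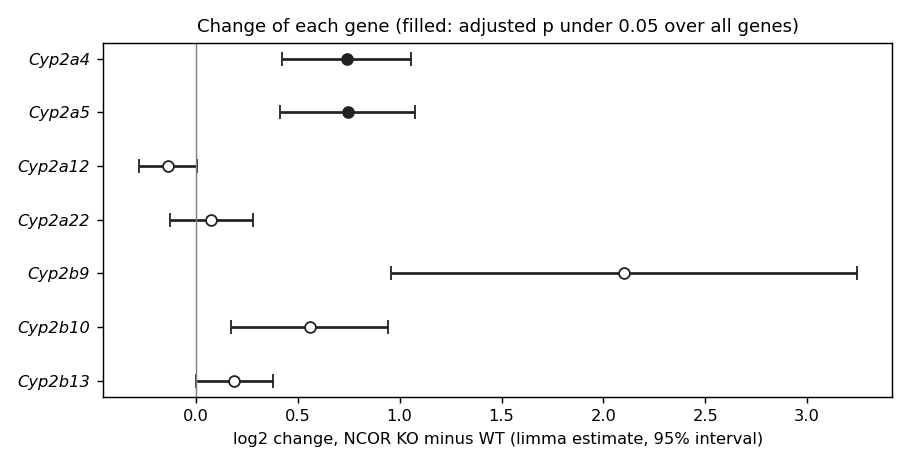
Log2 change, NCOR KO minus WT, of each measured gene (points, limma estimate over 4 and 4 arrays) with its 95% interval (bars); filled points passed an adjusted p of 0.05 over all genes. Cyp2a4 and Cyp2a5 sit together at 0.74, and Cyp2b9 has the largest estimate, 2.10, and the widest interval, 0.96 to 3.24.

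Cyp2b9 and Cyp2b13 are as alike upstream as the pair of Cyp2a genes, and they are shown because their estimated changes, 2.10 and 0.19, were far apart. The windows are chr7:26173159-26173408 for Cyp2b9 and chr7:26061245-26061494 for Cyp2b13 (GRCm38.p6, plus strand, RefSeq), with the bases that differ between them in capitals.
Cyp2b9: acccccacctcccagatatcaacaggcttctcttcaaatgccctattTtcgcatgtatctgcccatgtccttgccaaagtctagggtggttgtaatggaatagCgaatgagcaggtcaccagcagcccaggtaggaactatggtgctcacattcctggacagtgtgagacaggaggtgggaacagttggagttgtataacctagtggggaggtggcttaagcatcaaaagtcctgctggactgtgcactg
Cyp2b13: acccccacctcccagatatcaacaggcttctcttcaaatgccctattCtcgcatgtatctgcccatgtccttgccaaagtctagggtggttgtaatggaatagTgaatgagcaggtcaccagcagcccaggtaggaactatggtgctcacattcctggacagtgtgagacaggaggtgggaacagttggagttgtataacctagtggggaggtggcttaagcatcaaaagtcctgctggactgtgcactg
The starts used for Cyp2b9 and Cyp2b13 are those of RefSeq's promoter table, which lie 59 and 107 bases inside the span that RefSeq gives each gene, so these windows reach into it. They were identical at 248 of 250 positions (99.2%), with 2 substitutions. Cyp2b10 is less close, at 71.7% to either of them. Its window, chr7:25897408-25897657 on the plus strand, is shown with the match to TTGCNNAA, a C/EBP-type core, in capitals.
Cyp2b10: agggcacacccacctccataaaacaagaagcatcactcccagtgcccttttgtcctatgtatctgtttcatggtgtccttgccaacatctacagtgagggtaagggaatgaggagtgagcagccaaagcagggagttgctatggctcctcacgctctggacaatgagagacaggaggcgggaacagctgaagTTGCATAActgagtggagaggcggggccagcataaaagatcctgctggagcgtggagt

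The Cyp2b9 row read 6.87, 7.44, 9.21 and 7.44 in WT replicates 1 to 4 and 9.27, 9.16, 9.82 and 11.11 in NCOR_KO replicates 1 to 4. WT replicate 3 was 1.77 above the next control, and it overlapped the knockout group only in that NCOR_KO replicate 2 lay 0.05 below it. Against the control mean on the linear scale, the control arrays ran from 0.55 to 2.77 times and the knockout arrays from 2.68 to 10.3 times. The mean went from 7.74 ± 1.02 to 9.84 ± 0.90 (SD, n = 4), a change of 2.10 ± 0.52 SE or 4.28-fold, with an adjusted p of 0.0772 and a 95% interval from 0.96 to 3.24. Only 4 of the 22180 genes had a larger estimated rise, and it did not pass the threshold.

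Arrays of the same group lay farther apart for Cyp2b9 than for Cyp2a4. Cyp2b9 had an SD of 1.02 between control arrays and of 0.90 between knockout arrays, and the median over all genes was 0.11 and 0.10. An SD at least as large was found for 8 genes in control and 14 in knockout liver, Cyp2b9 included. For Cyp2a4 the SDs were 0.18 and 0.30, which 3989 and 542 genes reached. The range over 4 arrays was 2.34 in control and 1.95 in knockout liver for Cyp2b9, and 0.42 and 0.71 for Cyp2a4. Cyp2b9 was thus variable in both groups, while Cyp2a4 had its larger SD in the knockout group. The Cyp2b9 arrays farthest from their group means were WT replicate 3 (by 1.47) and NCOR_KO replicate 4 (by 1.27), so each SD leans on 1 array. Whether these SDs differ between groups was not tested.

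The arrays that were high differed between the genes. NCOR_KO replicate 4 was the highest knockout array of Cyp2b9 and the second of Cyp2a4, and NCOR_KO replicate 1, the highest of Cyp2a4 and Cyp2a5, was the third of Cyp2b9. WT replicate 3, the highest control of Cyp2b9, was the lowest control of Cyp2a5. Leaving out WT replicate 3 gave a Cyp2b9 change of 2.59 with an adjusted p of 0.0244. With another array left out in turn the change ran from 1.68 to 2.33 and the adjusted p from 0.112 to 0.177.

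**Figure D4:**
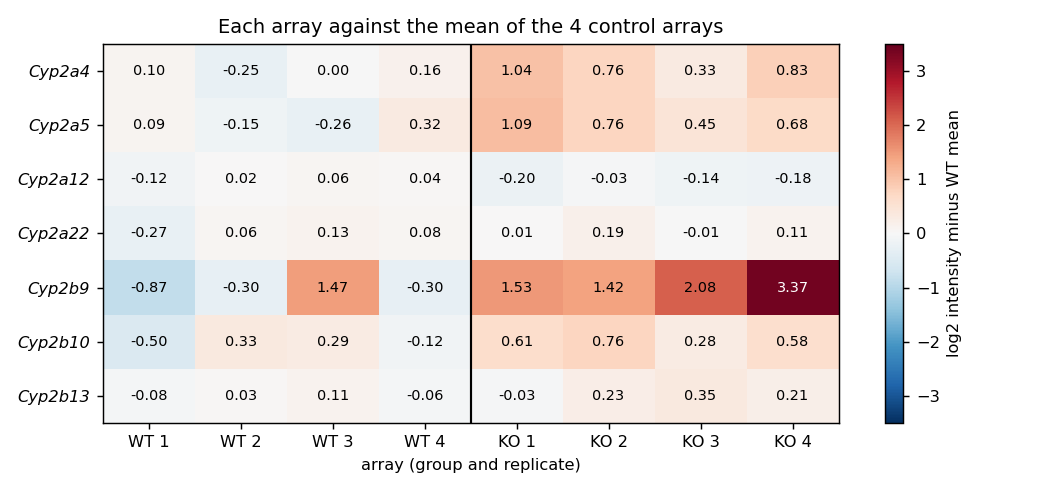
Log2 intensity of each array minus the mean of the 4 WT arrays, for 7 genes (rows) in 8 arrays (columns; the vertical line parts WT from NCOR KO), printed in each cell and coloured from blue (lower) to red (higher). The knockout columns of Cyp2a4 and Cyp2a5 are all above 0, and the Cyp2b9 row is red in WT replicate 3 as well as in the knockout columns.

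Cyp2b10, the CAR target, read 10.23, 11.06, 11.01 and 10.60 in control and 11.33, 11.49, 11.00 and 11.30 in knockout liver. NCOR_KO replicate 3 lay below WT replicates 2 and 3, and the other 3 knockout arrays lay above every control. The mean went from 10.72 ± 0.39 to 11.28 ± 0.20 (SD, n = 4), a change of 0.56 ± 0.17 SE or 1.47-fold (adjusted p = 0.149; 95% interval 0.17 to 0.94). It did not pass in any fit that left out an array, where the change ran from 0.39 without WT replicate 1 to 0.67 without WT replicate 2.

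Cyp2b13, the close copy of Cyp2b9, read 3.72, 3.83, 3.91 and 3.74 in control and 3.77, 4.03, 4.15 and 4.01 in knockout liver. These values are below the median of all genes, 5.88, so a change of the transcript may be compressed there. NCOR_KO replicate 1 lay below WT replicates 2 and 3. The change was 0.19 ± 0.09 SE (adjusted p = 0.317; 95% interval -0.0017 to 0.38).

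Cyp2b9 gained 1.54 on Cyp2b10 (exact permutation test, two-sided, p = 0.0857, adjusted over the 6 pairs 0.129), with WT replicate 3 above NCOR_KO replicates 1 and 2 in this difference. Against Cyp2b13 the gains were 1.91 for Cyp2b9 and 0.37 for Cyp2b10. The Cyp2b13 row was dim, so these differences largely restate the change of the other gene, and nothing is read from their tests (exact p = 0.0571 and 0.171).

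Short motifs were searched on both strands of the 250 bases before the start that RefSeq's promoter table gives, in the windows of all 8 genes and in its 32851 windows. That start lay at the edge of the gene's span for Cyp2a4, Cyp2a5, Cyp2a12 and Cyp2b10 and inside it for the other 4, and positions are counted from it. CAAAGTCC, an HNF4-type core, was found in Cyp2a4 and Cyp2a5, downstream of a TTGCATAA match to TTGCNNAA (in Cyp2a4 from -55 to -48 and from -70 to -63 relative to the start), and in 1.2% of all windows. TTGCNNAA itself was found in 5 of the 8 windows and in 9.56% of all. In Cyp2b10 it had the same letters as in Cyp2a4, from -58 to -51, whereas in Cyp2b9 and Cyp2b13 the match was TTGCCAAA, from -180 to -173. AGGTCA, a nuclear receptor half-site, was found in Cyp2b9 and Cyp2b13 only, once each, and in 14.02% of all windows. TATAAA was found in the 4 Cyp2a windows and in 12.37% of all, and GGGCGG, the GC box, in Por alone and in 32.74% of all. TTCNNNGAA, a STAT-type core, was in none of the 8 and in 7.02% of all windows. None of these motifs overlapped another in the same window. A match is a string of letters, and these windows do not reach distal enhancers.

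Other Cyp2 genes of the same cluster stayed below the threshold. Of 6 measured neighbours (Cyp2f2, Cyp2g1, Cyp2s1, Cyp2t4, Cyp2b19 and Cyp2b23) 0 passed, with a median change of 0.07 against 0.0063 over all genes. By limma 1 of these 6 had an unadjusted p under 0.05, as 15.9% of all genes did, and the largest change was that of Cyp2g1, an olfactory P450 gene, at -0.49 ± 0.14 SE (adjusted p = 0.131). By the gene order of GRCm38.p6, 8 tested genes that are not members lie between Cyp2b10 and Cyp2a12. By limma 0 of them passed and 2 had an unadjusted p under 0.05, against 15.9% of all genes. All but Cyp2g1 were dim, at control means of 3.31 to 4.39, where the median of all genes was 5.88. Cyp2t4 was dim too (4.33), and Cyp2f2 was bright (12.87). In such rows a change of the transcript may be compressed, so the missed threshold says little. Cyp2a4 and Cyp2a5 do not neighbour each other. The Cyp2 genes Cyp2b23, Cyp2b19 and Cyp2g1 lie between them, at changes of 0.12, 0.13 and -0.49. So do Nlrp9c, Nlrp4a, Nlrp9a and Vmn1r185, at -0.28, 0.07, 0.24 and -0.09.

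A list of genes for electron and heme supply to P450 enzymes, which also holds genes of heme breakdown, gave 0 of 20 past the threshold. It had 14 estimates above 0, 6 limma p-values under 0.05 before adjustment (15.9% over all genes) and a median change of 0.09. Cyb5r3, the cytochrome b5 reductase gene, went from 12.21 ± 0.05 to 12.41 ± 0.06 (SD, n = 4), and its groups did not overlap (0.20 ± 0.06 SE, adjusted p = 0.120). Cyb5a, the electron carrier cytochrome b5, was at -0.09 ± 0.06 SE (adjusted p = 0.487), and Alas1, the rate-limiting enzyme of heme synthesis, at 0.11 ± 0.09 SE (adjusted p = 0.564). The largest estimates of the list, both 0.25, were those of Hmox1, which degrades heme (adjusted p = 0.413), and of Ppox, a heme synthesis enzyme gene whose groups did not overlap (adjusted p = 0.112).

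Among 14 regulators of these genes 0 rose, 1 fell and 13 did not pass, with a median change of -0.06. The share called over all genes was 0.816% higher and 0.834% lower. By limma 6 of the 14 had an unadjusted p under 0.05, as 15.9% of all genes did. The one that fell was Cebpa, the C/EBPα transcription factor gene, at -0.35 ± 0.06 SE (adjusted p = 0.0158). That call was lost in 4 of the 8 fits without 1 array, those without WT replicates 1 and 4 and NCOR_KO replicates 2 and 3. Nr1i3, the gene for CAR, read 11.06 ± 0.15 in control and 10.77 ± 0.11 in knockout liver (SD, n = 4; -0.29 ± 0.09 SE, adjusted p = 0.133). Nr1i2, the gene for PXR, was at 0.12 ± 0.07 SE (adjusted p = 0.471). These are transcript levels and do not measure receptor activity.

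Of 28 measured targets of CAR and PXR outside the CYP2A and CYP2B families 7 rose, 1 fell and 20 did not pass, with a median change of 0.15. Over all genes 0.816% were called higher and 0.834% lower. Before adjustment 14 of the 28 had a limma p under 0.05, as 15.9% of all genes did. Among those that passed, the largest rises were those of Gadd45b (2.23), Cyp2c55 (1.48), Cyp2c38 (1.28) and Cyp3a25 (1.09, lost in 7 of the 8 fits without 1 array), a growth arrest gene and P450 genes of neighbouring families. The one that fell was Cyp1a2, at -0.33 ± 0.07 SE (adjusted p = 0.0429). Abcc4, an exporter gene, had an estimate of 1.25 that did not pass (adjusted p = 0.106). The list was written with results of these data known, as were those below, so its count is a description. With single arrays left out 4 to 6 of the list were higher and 0 lower, so the fall of Cyp1a2 was lost in each of those fits.

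Genes with a sex-biased level in mouse liver were set beside Cyp2b9 and Cyp2a4. Of 18 measured female-biased genes, these members not counted, 2 rose, 0 fell and 16 did not pass, with a median change of 0.22. The risers were Cyp17a1, a steroid hydroxylase gene (1.97 ± 0.12 SE, adjusted p = 3.99e-05), and Cyp3a44 (0.71 ± 0.08 SE, adjusted p = 0.00200). Of 22 male-biased genes 1 rose, 6 fell and 15 did not pass, with a median change of -0.35. The female-biased genes were dimmer, averaging 5.84 to 6.28 in control arrays against 10.34 to 10.64 for the male-biased genes. A change may be compressed in dim rows, so the counts of these lists are not compared. Over all genes 0.816% were called higher and 0.834% lower. Before adjustment 6 of the 18 female-biased and 16 of the 22 male-biased genes had a limma p under 0.05, as 15.9% of all genes did. Among those that passed, the largest falls were those of Obp2a (-1.86), Selenbp2 (-1.72), Susd4 (-1.05) and Cyp7b1 (-0.84), and the riser was the elongase gene Elovl3 (0.72). Selenbp2 and Susd4 passed in all 8 fits without 1 array, while Obp2a, Cyp7b1 and Elovl3 were lost in 6, 7 and 6 of them. Hsd3b5, a steroid dehydrogenase gene, was at -1.65 and did not pass (adjusted p = 0.0624). With single arrays left out 2 to 5 of the male-biased genes were lower and 2 to 3 of the female-biased genes higher.

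The sex of the mice, absent from the labels, bears on genes of this kind. The Y-linked genes Eif2s3y and Uty read 8.99 to 9.24 and Kdm5d 7.48 to 7.92 in the 8 arrays, and Xist, the X inactivation transcript, read 4.01 to 4.56. In all 8 arrays these Y-linked genes were above the median of all genes, 5.88, and Xist was below it. The 4 genes had overlapping groups and none passed (adjusted p from 0.271 to 0.857). WT replicate 3, the high control of Cyp2b9, read 9.21 for Eif2s3y and 4.31 for Xist, within those ranges.

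**Figure D5:**
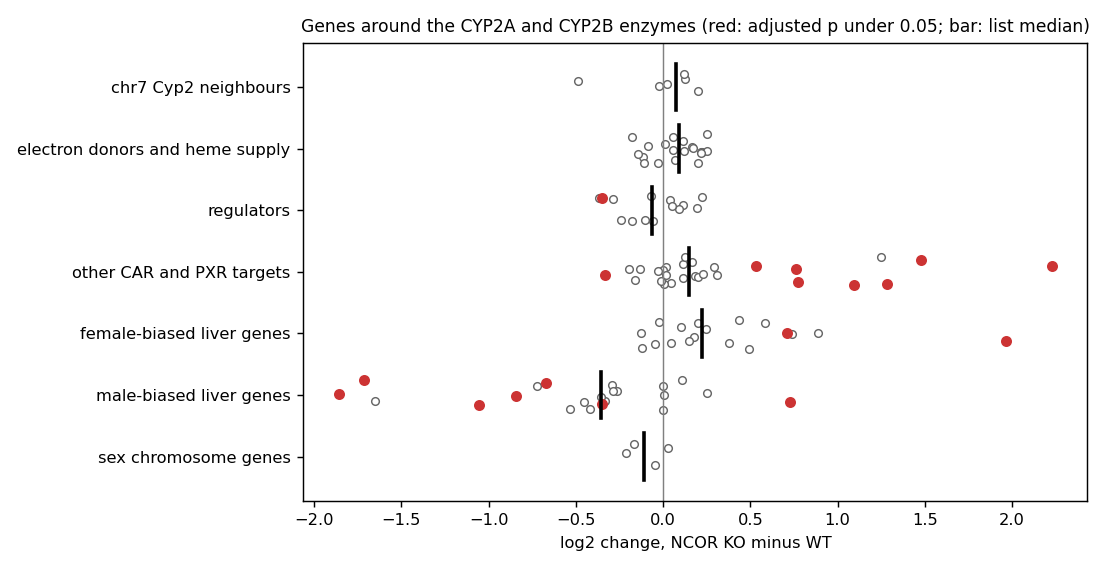
Log2 change, NCOR KO minus WT (x axis), of each measured gene (points) of 7 lists (rows), with the members left out; red points passed an adjusted p of 0.05 over all genes, and the black bar is the list's median. The male-biased list lies mostly below 0 (median -0.35), and the lists of neighbours and of electron donors hold no red point.

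The genes whose profile over the 8 arrays was nearest to a member's were found by the root mean square difference of log2 values, each gene centred on its own mean. This measure includes the difference between groups, so it is a description. For Cyp2b9, whose own profile measured 1.34, the nearest were the acyltransferase gene Acnat2 (0.68), the hepcidin gene Hamp2 (0.69), Cyp17a1 (0.70), Cyp2c38 (0.71) and Pltp, the phospholipid transfer protein gene (0.75). Hamp2 read 9.17, 9.77, 10.63 and 9.65 in control and 11.03, 10.73, 10.78 and 11.33 in knockout liver (change 1.16 ± 0.26 SE, adjusted p = 0.0567). In Acnat2, Hamp2 and Cyp2c38, as in Cyp2b9, WT replicate 3 was the highest control and NCOR_KO replicate 4 the highest knockout array. Across all genes the deviations of WT replicate 3 and NCOR_KO replicate 4 from their group means correlated at 0.222. No other control and knockout array correlated more, so this order is not particular to these genes.

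For Cyp2a4, whose own profile measured 0.43, the nearest gene outside the families was Slc2a4, a glucose transporter gene (0.12), followed by the glutathione transferase gene Gstm3 (0.15), the lipogenic regulator Srebf1 (0.15), 4930480G23Rik (0.18) and Lrfn3 (0.18). Slc2a4, dim at a control mean of 5.05, did not pass by limma (adjusted p = 0.144), nor did 4930480G23Rik (adjusted p = 0.0652). Cyp2a5 lay 0.13 from Cyp2a4. Nearest to Cyp2a5 were Gstm3 (0.12), Ifna7 (0.19), the flagellin receptor gene Tlr5 (0.20), Enc1 (0.20) and Mir326 (0.20). Ifna7, Tlr5, Enc1 and Mir326 did not pass by limma (adjusted p from 0.0984 to 0.143), and Mir326 was dim, at a control mean of 4.27. Gstm3, near to both, rose by 0.77 ± 0.09 SE (adjusted p = 0.00419), and its highest knockout array was replicate 1 and its lowest replicate 3, as for Cyp2a5.

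In bulk liver RNA fewer cells of a type and less RNA per cell cannot be told apart, so marker genes were read on the same arrays. Hepatocyte markers averaged 12.59 to 12.62 in control and 12.56 to 12.62 in knockout arrays, with 0 of 6 past the threshold and 0 with an unadjusted limma p under 0.05. Of 8 markers of hepatocytes near the central vein 2 fell, where 0.834% of all genes were called lower. They were Rhbg (-0.89) and Cyp1a2, the latter lost with any single array left out. All 8 estimates were below 0, and 3 had an unadjusted limma p under 0.05, against 15.9% of all genes. The averages were 10.18 to 10.34 in control and 9.91 to 10.04 in knockout liver. By limma 0 of 6 periportal, 0 of 7 endothelial, 0 of 6 Kupffer and 0 of 6 stellate markers passed. Before adjustment 6 of the endothelial markers and 0 of the other 3 lists had a p under 0.05, where 15.9% of all genes did, and the 7 endothelial estimates were above 0. Lymphocyte markers gave 2 of 5 higher (Cd3e and Cd79a, lost in 6 and 3 of the 8 fits without 1 array). They averaged 4.97 to 5.04 in control and 5.15 to 5.37 in knockout arrays. Cholangiocyte markers gave 1 of 5 higher (Epcam, lost with any single array left out), averaging 5.64 to 5.70 and 5.80 to 5.94. Over all genes 0.816% were called higher. Before adjustment 3 of the 5 lymphocyte and 3 of the 5 cholangiocyte markers had a limma p under 0.05, against 15.9% of all genes. Array intensities have no true zero, so absence of a marker cannot be read, and the part of these markers in the changes above was not tested.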

How the data were processed

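The authors deposited 1 linear intensity per probe set and array. RMA and Partek are named, with no version or role, per the submitters' processing notes. Background correction, filtering and genome build are not given in the sources used here. Log2 was taken of the authors' intensities (5.42 to 13268), with no further normalization. Array medians of these intensities ran from 41.0 to 44.1, and the number of arrays limits precision. The medians of NCOR_KO replicates 1, 2 and 3 (44.0, 44.1 and 43.6) were above the highest control median, 43.2. Of 41345 rows 23521 named 1 gene, 1814 named several and 16010 named none, and only the first were used. Of their identifiers 23328 matched RefSeq (GRCm38.p6). The brightest row per gene was kept, giving 22180 genes.

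Groups came from the labels. Models were fitted in limma 3.58.1 (lmFit and eBayes; R 4.3.3), with p-values adjusted by Benjamini-Hochberg over all genes. The model was tested on simulated data. Pair differences were tested by exact permutation over 70 assignments. Promoters were aligned pairwise without penalty for end gaps.

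Array correlations across genes were 0.994 to 0.997 within and 0.992 to 0.996 between groups. On the second principal component (20.4% of variance) WT replicate 2 and NCOR_KO replicate 1 were lowest, and NCOR_KO replicate 4 and WT replicate 3 were highest. The targeted gene was not analysed here, so the labels were not checked against it.

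Members, lists and tests were chosen with earlier results of these data known. Named were all members, up to 4 genes past the threshold per list (or the 1 with the largest change), Nr1i3, Nr1i2, Cyb5a, Cyb5r3, Alas1, sex chromosome genes, and the 5 nearest profiles of Cyp2b9, Cyp2a4 and Cyp2a5. Genes between Cyp2b10 and Cyp2a12, Elovl3, Cyp1a2, Abcc4, Hsd3b5, Ppox and the cell type markers were named after their values were seen. Alternatives were other normalizations, array weights, a trend and robust variance, a filter on dim genes, mean rows, single rows, the replicate block, other thresholds and leaving out arrays.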

Additional observations from a re-analysis of the deposited data

Results flagged for a closer look

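Cyp2a22 in control liver had an array apart from the rest: WT replicate 1 read 6.80, where the other 3 controls read 7.14 to 7.20, a gap of 0.840 of the group's range, above Dixon's 95% limit for 4 arrays. Slc2a4, the nearest profile to Cyp2a4, had WT replicate 2 at 4.64 and the other controls at 5.14 to 5.21, a gap of 0.873. Of 102 groups of 4 arrays checked 2 passed that limit, 1 of them among the 14 groups of the measured members, where chance gives about 5%.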

How the results depend on the processing

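In all 7 fits with 8 arrays at other settings and in the fit with the replicate block, Cyp2a4 and Cyp2a5 remained called and no other member was. The share of calls that were higher, 49.5% (181 of 366), became 33.0% (145 of 440) with each array centred on its median, where the median gene moved to -0.03. Over all genes the 366 calls became 551 among genes at or above the median level, 155 with the replicate block, and 88 and 807 at thresholds of 0.01 and 0.1. The members called were 0 at 0.01 and 3 at 0.1, Cyp2b9 being the third. Same-numbered arrays did not deviate together (correlations of -0.0935 to 0.0167 across genes), so the numbers are not taken to pair the samples; with the replicate block 2 members passed. Without both WT replicate 2 and NCOR_KO replicate 1, an alternative chosen after seeing the data, 202 genes and 0 members passed. Leaving out single arrays gave 120 to 297 genes, 0 to 2 members and 8 to 15 of the 111 genes of the pathway lists, 18 of which passed in all arrays. Without single arrays, or without that pair, Cyp2a22 ran from -0.0147 (no WT replicate 1) to 0.119. No other member changed sign in up to 17 fits.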
